A study of Mus musculus with 24 samples.

Results

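The MYC, MAX and MXD network is a group of basic helix-loop-helix leucine zipper proteins that compete for the same partners and the same DNA sites. Its 10 genes, Myc, Mycn, Max, Mxd1, Mxd3, Mxd4, Mxi1, Mnt, Mlx and Mga, were taken by symbol from the 23420 genes of each file, and all 10 were found. They were followed in CD8+ T cells of 6 mice, each sampled at 0, 4, 8 and 24 h, which gave 24 libraries in 8 groups of 3. Mice 1, 2 and 3 are labelled Tcf7 cKO (E8i-cre+, Tcf7FL/FL, OTI+), and mice 4, 5 and 6 are labelled wildtype, or WT (E8i-cre-, Tcf7FL/FL, OTI+). Tcf7 encodes TCF1, a DNA-binding factor of the TCF and LEF family that naive T cells express. Both genotypes thus carry the floxed alleles and the OT-I T cell receptor transgene. The recombinase, whose E8i element is active in the CD8 T cell lineage, is present in cKO mice and absent from WT mice, so what the transgene does and what the loss of Tcf7 does cannot be told apart. Cells came from spleen and lymph nodes by CD8 microbeads. The 0 h sample was taken before plating, and the later ones after culture on plates with bound anti-CD3 and anti-CD28 at 1 ug/mL, with murine IL2 at 6 ng/mL. Each library was made from 1000 sorted cells with Smart-seq2, a full-length amplification protocol that does not keep the strand of the RNA.

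MYC and its relative MYCN bind E-box DNA, of which CACGTG is the best known form, as dimers with MAX and recruit co-activators. In T cells MYC is known for the switch of quiescent cells to growth after antigen receptor stimulation. The MXD proteins (MXD1, MXD3, MXD4 and MXI1, which is also called MXD2) and MNT also dimerise with MAX but bring the SIN3 and histone deacetylase co-repressors to E-boxes. MGA is a large MAX partner in a Polycomb repressor complex, and MLX is a MAX-like protein that pairs with the nutrient sensors MondoA and ChREBP and with some MXD proteins.

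Promoter sequence was available for 9 of the 10 genes, all but Myc, so the promoter of Myc was not searched. The 11 windows run from 250 bases before to 50 bases after a RefSeq start site on GRCm38.p6. The 5 stretches that follow are shown because they hold the network's own E-box or a site letter pattern of the TCF and LEF factors, to which TCF1 belongs. Each is given 5′ to 3′ on the strand of the gene, with 20 bases on either side and the match in capitals. The letters CACGTG, which read the same on both strands, stood in the windows of Max, Mlx, Mnt and Mxd4, 4 of the 9 genes. Counted by window, they stood in 4 of the 11 and in 7.15% of all 32851 windows. CTTTGAA or CTTTGAT, searched on both strands, stood in the window of Mycn, 1 of the 9 genes, as its reverse complement TTCAAAG. By window this was 1 of the 11, beside 8.65% of all windows.
Max, chr12:76962226-76962271, minus strand: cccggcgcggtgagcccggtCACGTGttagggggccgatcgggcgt
Mlx, chr11:101087230-101087275, plus strand: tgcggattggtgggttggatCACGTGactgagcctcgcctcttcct
Mnt, chr11:74830781-74830826, plus strand: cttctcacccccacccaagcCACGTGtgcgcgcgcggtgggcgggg
Mxd4, chr5:34187904-34187949, minus strand: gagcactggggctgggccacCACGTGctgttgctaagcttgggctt
Mycn, chr12:12941824-12941870, minus strand: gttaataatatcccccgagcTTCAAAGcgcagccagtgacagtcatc
The first base of the match lay 3 bases upstream of the start site in Max, 40 in Mlx, 123 in Mnt, 219 in Mxd4 and 14 in Mycn. A match describes letters in a window and is not a measured binding site.

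The 250 bases upstream of Mxd1 and Mxd3 are shown as well, because these MXD genes had their highest level at different times, Mxd1 at 4 h and Mxd3 at 24 h. Capitals mark GGGCGG, the core of the GC box bound by SP factors, which was searched on both strands. Runs such as GGGCGGGGCGG are 2 matches that lie next to each other or share bases.
Mxd1, chr6:86669160-86669409, minus strand: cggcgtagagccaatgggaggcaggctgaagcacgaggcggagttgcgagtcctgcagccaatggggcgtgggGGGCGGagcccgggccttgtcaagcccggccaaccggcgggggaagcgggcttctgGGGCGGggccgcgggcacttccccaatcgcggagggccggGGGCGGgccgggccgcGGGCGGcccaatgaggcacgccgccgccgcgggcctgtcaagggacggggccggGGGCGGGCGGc
Mxd3, chr13:55329732-55329981, minus strand: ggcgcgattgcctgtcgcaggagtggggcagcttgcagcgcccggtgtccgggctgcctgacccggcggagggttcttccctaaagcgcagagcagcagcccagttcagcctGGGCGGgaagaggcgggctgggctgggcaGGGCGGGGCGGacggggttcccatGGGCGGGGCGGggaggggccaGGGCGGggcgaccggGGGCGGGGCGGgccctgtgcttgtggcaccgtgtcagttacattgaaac
Mxd1 had 6 matches and Mxd3 had 8, and neither window held CACGTG or the TCF and LEF letters. GGGCGG stood in 9 of the 11 windows, which belong to 7 of the 9 genes, and in 35.7% of all windows.

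Each library held between 5846265 and 9700397 expected counts. The labelled cell type fitted its markers, with Cd8a at 94.4 to 442 TPM and Cd3e at 86.5 to 389 TPM in all 24 libraries. TPM is a level scaled to transcript length and to the same total in every library. The summed markers of CD4 T cells reached at most 1.96 TPM, of NK cells 1.15, of myeloid cells 2.95 and of dendritic cells 6.47. The B cell list reached 53.3 TPM, nearly all of it Cd79b, while Ms4a1 was at most 0.68 TPM. Erythroid and platelet markers reached 21.5 TPM in 1 library of cKO cells at 4 h and at most 0.15 TPM in WT cells at that time. Gene-level Tcf7 RNA was at 695 ± 21.0 TPM in cKO and 540 ± 35.6 TPM in WT at 0 h, 262 ± 10.0 and 192 ± 12.5 at 4 h, 103 ± 26.9 and 73.8 ± 18.5 at 8 h, and 37.2 ± 1.34 and 69.4 ± 7.23 at 24 h. It was thus higher on average in cKO at 3 of 4 times, without overlap of the libraries at 0 and 4 h, and lower in cKO at 24 h. These counts cover the whole gene and do not check the deletion, so the genotypes here rest on the labels. In bulk samples, fewer cells of a type and less RNA per cell cannot be told apart, and a TPM level says nothing of the total RNA of a cell.

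Myc was the most abundant member in all 8 groups, followed by Mlx and Max, and in these 3 places the libraries of neighbouring genes did not overlap. Over the 24 libraries the mean was 681 TPM for Myc, 82.7 for Mlx and 33.9 for Max. The repressors were far lower, at 7.35 TPM for Mxd1, 4.34 for Mga, 2.91 for Mnt, 2.15 for Mxd3, 1.63 for Mxi1 and 0.955 for Mxd4, and Mycn was at 0.143 TPM. The order among them moved with time. Next after Max came Mxd1 at 0 and 4 h in both genotypes. At 8 h it was Mga, at 5.92 ± 0.638 TPM in cKO and 5.49 ± 0.820 in WT. At 24 h it was Mxd3, at 7.06 ± 1.00 TPM in cKO and 8.90 ± 0.344 in WT (SD, n = 3 each). The libraries of Mxd1 and Mga overlapped at 0 h in cKO and at 8 h in WT. Among neighbours lower in the order, libraries often overlapped, as those of Mga and Mnt did at 0 h in both genotypes.

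**Figure D1:**
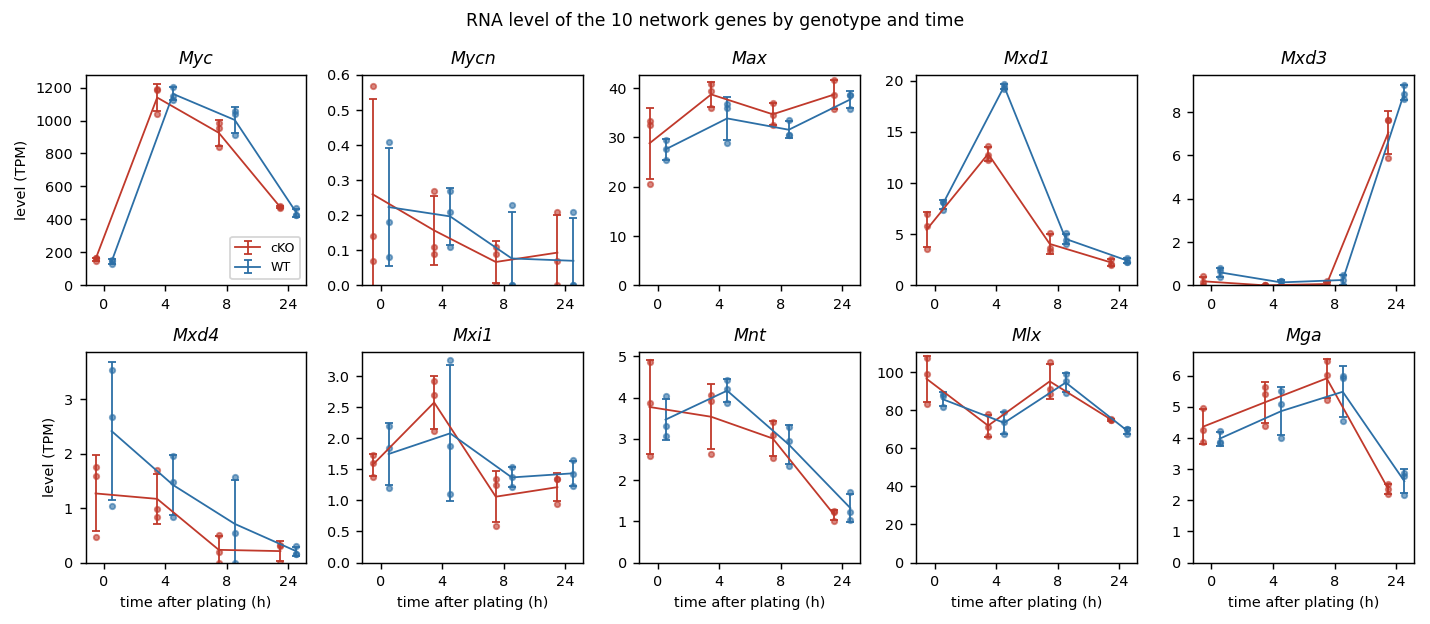
RNA level in TPM (vertical axis) of each of the 10 genes at 0, 4, 8 and 24 h after plating (horizontal axis, times evenly spaced), cKO left of WT. Points are libraries, lines join the means and bars are the SD of 3 mice, not drawn below 0. Myc and Mxd1 peak at 4 h, and Mxd3 is near 0 until it stands at 5.90 to 9.27 TPM at 24 h.

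Of the 10 genes, 8 passed edgeR's filter on low counts and entered the test across 11470 genes. Mycn and Mxd4 did not pass, and Mxd3 passed through its 24 h counts. Here, called means that edgeR's quasi-likelihood test gave a Benjamini-Hochberg adjusted p below 0.05. At 4 h against 0 h, 5 of the 8 rose and 1 fell in cKO cells, where 29.6% of all genes rose and 27.6% fell. In WT cells 4 rose and 0 fell, beside 30% and 29.1% of all genes. None fell there by DESeq2 or at an unadjusted p under 0.05 in edgeR, while limma on TPM called 2 lower, Mlx and Mxd3. At 8 h against 4 h, 1 rose and 3 fell in cKO (20.8% and 19.6% of all genes), and 1 rose and 1 fell in WT (21.9% and 19.7%). At 24 h against 8 h, 1 rose and 5 fell in cKO (25.2% and 32.1% of all genes), and 1 rose and 5 fell in WT (24.7% and 34.1%). The 1 that rose in each was Mxd3, which had to be high at 24 h to be tested at all. At 24 h against 0 h, 3 rose and 4 fell in cKO (37.3% and 39% of all genes), and 3 rose and 4 fell in WT (36.9% and 40.1%). The 3 that rose in each were Myc, Max and Mxd3, and here too Mxd3 was tested only through its 24 h counts. A large part of the transcriptome moved at each step, so these counts alone do not set the network apart. The median change of the 8 genes at 24 h against 8 h was −0.64 in cKO and −0.77 in WT on the log2 scale, beside −0.09 and −0.12 for all genes.

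**Figure D2:**
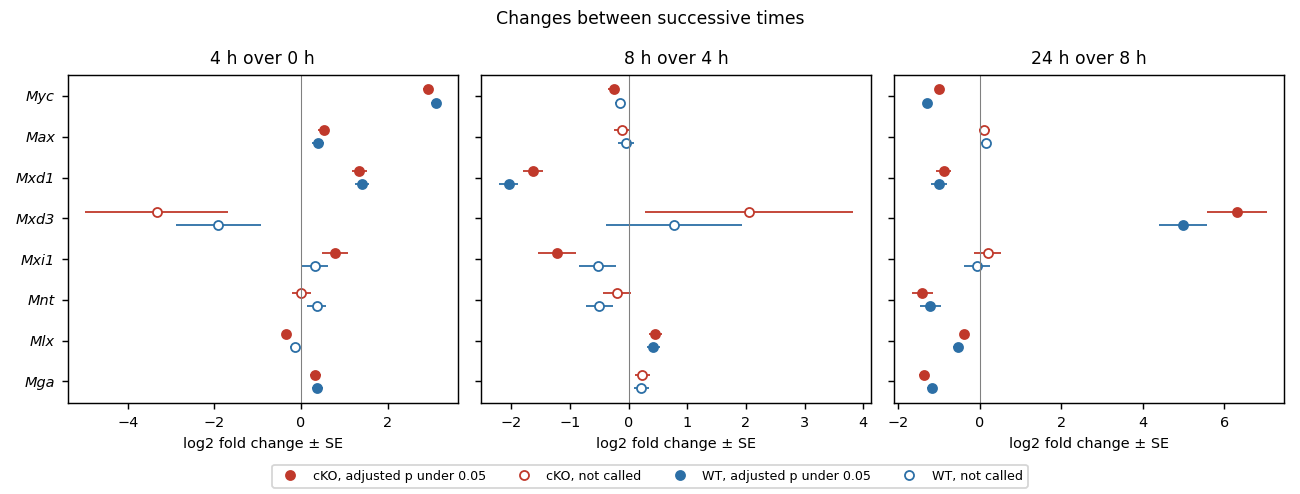
Fitted log2 fold change ± SE (horizontal axis) of the 8 tested genes between successive times, cKO above WT. Filled points were called at an adjusted p under 0.05. The axes differ between panels, and Mxd3 had 0 to 10 counts in each group before 24 h. Mxd3 passed the filter through its 24 h counts, so its filled points at 24 h over 8 h were favoured by that filter.

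Myc rose sharply by 4 h in both genotypes and then declined, and it was still above its starting level at 24 h. The gene lies on chromosome 15 (61985391 to 61990374, plus strand, mm10). Values of libraries are given in the order of mice 1, 2 and 3 in cKO and 4, 5 and 6 in WT. The 0 h libraries held 165, 148 and 164 TPM (cKO) against 147, 129 and 156 TPM (WT). The 4 h libraries held 1042, 1192 and 1185 TPM (cKO) against 1205, 1127 and 1151 TPM (WT). The libraries of these times were far apart, and those of the genotypes overlapped at both. At 8 h the levels were 836, 956 and 983 TPM (cKO) against 913, 1056 and 1040.4 TPM (WT), and at 24 h they were 467, 472 and 480.0 TPM (cKO) against 467, 429 and 425 TPM (WT). The lowest cKO library at 24 h, mouse 1, lay just above the highest WT library, mouse 4.

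The rise of Myc at 4 h over 0 h was 2.93 in log2 in cKO (SE 0.101, adjusted p = 1.75e-23) and 3.11 in WT (SE 0.102, adjusted p = 4.37e-24), in 6 of 6 mice. From its place among all 11470 genes this was a large change, with the 349th largest absolute fold change in cKO and the 299th in WT. At 24 h against 8 h Myc fell by 1.01 in cKO (adjusted p = 2.56e-11) and by 1.30 in WT (adjusted p = 4.34e-14). At 8 h against 4 h the log2 change was −0.26 in cKO (SE 0.0933, adjusted p = 0.0243), a call that was lost without mouse 1, 2 or 3 or without the 4 h library of mouse 3 alone (adjusted p 0.0632 to 0.0920). In WT it was −0.15 (SE 0.0933, adjusted p = 0.216). The WT mice differed, with −0.52 in mouse 4, −0.08 in mouse 6 and a move the other way, by 0.12, in mouse 5. Without mouse 5 the WT change was −0.29 (adjusted p = 0.0371 in edgeR), most of it from mouse 4. At 24 h Myc remained 1.66 above 0 h in each genotype (adjusted p = 1.80e-17 in cKO and 1.81e-17 in WT).

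Mycn, the MYC family member of embryonic and progenitor cells, was near the limit of detection. It had 39 counts over all 24 libraries, 6 of which had 0, and its level ran between 0 and 0.57 TPM. The 3 libraries of a group together had 9, 5, 2 and 4 counts at 0, 4, 8 and 24 h in cKO and 7, 6, 3 and 3 in WT. The 95% counting interval of each ratio between times or genotypes spanned 1, as for 24 h over 0 h in cKO (0.426, 0.0958 to 1.52) and in WT (0.334, 0.0557 to 1.46), so no change was detectable at this depth.

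Max, the obligate partner of MYC and of the MXD repressors (chromosome 12, 76937269 to 76962201, minus strand), moved much less than Myc. The 0 h libraries held 20.5, 33.4 and 32.5 TPM (cKO) against 27.7, 25.4 and 29.6 TPM (WT). At 4 h the values were 35.9, 40.9 and 39.3 TPM (cKO) against 36.8, 36.0 and 28.8 TPM (WT), and at 8 h 32.5, 34.6 and 36.9 TPM (cKO) against 30.5, 30.6 and 33.6 TPM (WT). The 24 h libraries held 38.6, 41.7 and 35.8 TPM (cKO) against 38.7, 38.6 and 35.8 TPM (WT). In both genotypes all 24 h libraries were above all 0 h libraries, and cKO mouse 1 was the lowest at 0 h. The log2 change at 24 h over 0 h was 0.51 in cKO (SE 0.133, adjusted p = 0.000833) and 0.50 in WT (SE 0.135, adjusted p = 0.00113). Most of it was present at 4 h, with 0.52 in cKO (adjusted p = 0.00126) and 0.39 in WT (adjusted p = 0.0150). The WT call at 4 h was lost in 3 of 13 alternatives (adjusted p 0.0724 to 0.149). The ratio of Myc to Max in TPM was 5.84 in cKO and 5.22 in WT at 0 h, 29.4 and 34.7 at 4 h, 26.7 and 31.8 at 8 h, and 12.3 and 11.7 at 24 h.

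Mxd1, a repressor linked to the exit from proliferation in differentiating cells, rose and fell within the first 8 h. It lies on chromosome 6 (86647042 to 86669161, minus strand). The 0 h libraries held 3.56, 5.76 and 6.96 TPM (cKO) against 8.16, 7.34 and 8.17 TPM (WT). The 4 h libraries held 12.7, 13.6 and 12.2 TPM (cKO) against 19.4, 19.2 and 19.7 TPM (WT). All cKO libraries were below all WT libraries at both times. At 8 h the levels were 3.34, 3.67 and 5.14 TPM (cKO) against 5.08, 4.07 and 4.45 TPM (WT), and at 24 h they were 2.01, 2.61 and 2.06 TPM (cKO) against 2.31, 2.70 and 2.24 TPM (WT). The genotypes overlapped at these later times.

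Within a genotype, Mxd1 rose at 4 h over 0 h by 1.35 in cKO (SE 0.164, adjusted p = 6.71e-09) and by 1.40 in WT (SE 0.159, adjusted p = 1.40e-09). At 8 h against 4 h it fell by 1.64 in cKO (SE 0.172, adjusted p = 1.49e-09) and by 2.05 in WT (SE 0.167, adjusted p = 4.69e-12), in 6 of 6 mice. That fall was the 380th largest absolute fold change of all tested genes in cKO and the 216th in WT. A further fall of 0.89 in cKO (adjusted p = 0.000181) and 1.00 in WT (adjusted p = 2.35e-05) followed at 24 h against 8 h. Mxd1 ended below its starting level, by 1.18 in cKO (adjusted p = 5.64e-07) and by 1.65 in WT (adjusted p = 2.25e-10).

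Mxd3, the MXD repressor known from mouse cells in S phase, was nearly absent through 8 h and present at 24 h. The gene lies on chromosome 13 (55325168 to 55329823, minus strand). The 0 h libraries held 0.42, 0.14 and 0 TPM (cKO) against 0.80, 0.64 and 0.37 TPM (WT). At 4 h it was at 0 in all 3 cKO libraries and at 0.19, 0.22 and 0 TPM in WT, and the 8 h libraries held 0.19, 0 and 0 TPM (cKO) against 0.24, 0 and 0.50 TPM (WT). At 24 h it stood at 7.65, 7.63 and 5.90 TPM (cKO) against 9.27, 8.84 and 8.59 TPM (WT). Every 24 h library was above every earlier one, and the 24 h levels of the genotypes did not overlap.

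In counts, the 3 cKO libraries together had 149 Mxd3 counts at 24 h, against 1 at 8 h, a ratio of 104 after scaling for library size, with a 95% counting interval of 18.4 to 4140. The 3 WT libraries had 191 at 24 h, against 4 at 8 h, a ratio of 34.0 (13.0 to 126). These intervals cover counting error only, since reads without molecular identifiers are not independent molecules. Since Mxd3 entered the test through its 24 h counts, no p is given for this rise. Mxd3 shares 105 exonic bases, 4.43% of its own, with Prelid1 on the opposite strand, and the libraries do not keep strand. Group means of Prelid1 were 367 to 430 TPM at 0, 4 and 8 h, when Mxd3 was at 0.80 TPM or less in every library, and 603 ± 13.6 TPM in cKO and 621 ± 9.85 TPM in WT at 24 h. The part of Prelid1 in the Mxd3 values was not tested.

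Mxd4, an MXD repressor known from resting and differentiated cells (chromosome 5, 34173883 to 34187720, minus strand), had few counts, and fewest at 8 and 24 h. Its 3 libraries together had 21, 16, 3 and 4 counts at 0, 4, 8 and 24 h in cKO and 35, 18, 9 and 4 in WT. The ratio of 24 h to 0 h after scaling was 0.182 in cKO (95% counting interval 0.0455 to 0.541) and 0.0890 in WT (0.0230 to 0.249). Both intervals lie below 1. At 0 h its level was 0.47, 1.59 and 1.75 TPM (cKO) against 3.54, 2.67 and 1.04 TPM (WT), and these overlapped. The ratio of cKO to WT in summed counts at 0 h was 0.496 (95% counting interval 0.274 to 0.876). At 4, 8 and 24 h the interval of this ratio spanned 1. These intervals cover counting error only and leave out the spread between mice. The files count Mxd4 over a transcript of 1179 bases, while GENCODE gives the gene 8483 exonic bases.

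Mxi1, the member also called MXD2 (chromosome 19, 53310518 to 53375810, plus strand), was low throughout and varied between mice. The 0 h libraries held 1.38, 1.73 and 1.60 TPM (cKO) against 1.20, 2.19 and 1.85 TPM (WT). The 4 h libraries held 2.69, 2.11 and 2.93 TPM (cKO) against 1.10, 1.88 and 3.26 TPM (WT), a spread that spans the cKO values. The 8 h libraries held 1.34, 0.59 and 1.25 TPM (cKO) against 1.53, 1.21 and 1.37 TPM (WT), and the 24 h libraries 0.95, 1.35 and 1.34 TPM (cKO) against 1.65, 1.42 and 1.24 TPM (WT). In cKO it rose at 4 h over 0 h by 0.79 (SE 0.303, adjusted p = 0.0256) and fell at 8 h against 4 h by 1.23 (SE 0.326, adjusted p = 0.00238). The cKO rise was lost in 4 of 13 alternatives, among them without mouse 1 (adjusted p = 0.141), without mouse 3 (0.142) and without the 4 h library of mouse 3 (0.0737). In WT the same steps were 0.32 (adjusted p = 0.385) and −0.53 (adjusted p = 0.191) and were not called.

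Mnt and Mga, which encode broadly expressed MAX-binding repressors, were both lower at 24 h than at any earlier time. Mnt (chromosome 11, 74830920 to 74845725, plus strand) was at 2.58, 3.88 and 4.86 TPM (cKO) against 3.31, 4.03 and 3.06 TPM (WT) at 0 h. It held 4.06, 2.63 and 3.92 TPM (cKO) against 4.43, 3.87 and 4.21 TPM (WT) at 4 h, and 3.09, 2.54 and 3.40 TPM (cKO) against 3.30, 2.35 and 2.94 TPM (WT) at 8 h. The 24 h libraries held 1.00, 1.24 and 1.22 TPM (cKO) against 1.23, 1.03 and 1.70 TPM (WT). All 24 h libraries were below all earlier ones, and the genotypes overlapped at each time. Mnt fell at 24 h against 8 h by 1.41 in cKO (SE 0.252, adjusted p = 1.12e-05) and by 1.21 in WT (SE 0.247, adjusted p = 7.74e-05), in 6 of 6 mice.

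Mga (chromosome 2, 119897228 to 119969581, plus strand) first rose a little. The 0 h libraries held 4.25, 3.88 and 4.98 TPM (cKO) against 3.83, 3.86 and 4.24 TPM (WT), and the 4 h libraries 4.40, 5.63 and 5.42 TPM (cKO) against 4.00, 5.08 and 5.51 TPM (WT). The 8 h libraries held 6.03, 5.23 and 6.49 TPM (cKO) against 5.94, 4.54 and 5.98 TPM (WT). The 24 h libraries held 2.35, 2.21 and 2.52 TPM (cKO) against 2.89, 2.18 and 2.77 TPM (WT), below every earlier library of the same genotype. The rise at 4 h over 0 h was 0.33 in cKO (adjusted p = 0.0244) and 0.38 in WT (adjusted p = 0.0111), and it was lost in 5 and 3 of 13 alternatives. The fall at 24 h against 8 h was larger, by 1.37 in cKO (SE 0.131, adjusted p = 3.63e-11) and by 1.17 in WT (SE 0.130, adjusted p = 1.14e-09), in 6 of 6 mice.

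Mlx (chromosome 11, 101087277 to 101092207, plus strand) was the second most abundant member and among the steadiest. It was at 83.5, 98.8 and 107 TPM (cKO) against 81.7, 88.4 and 87.4 TPM (WT) at 0 h, and at 77.9, 71.3 and 66.5 TPM (cKO) against 78.9, 73.8 and 67.4 TPM (WT) at 4 h. It was at 91.2, 106 and 88.7 TPM (cKO) against 89.3, 95.3 and 98.99 TPM (WT) at 8 h, and at 74.9, 74.6 and 75.5 TPM (cKO) against 69.9, 70.2 and 67.4 TPM (WT) at 24 h. The 24 h libraries were below the 0 h libraries in each genotype. Mlx fell at 4 h over 0 h by 0.34 in cKO (adjusted p = 0.00693), a call lost in 2 of 13 alternatives. In WT this change was −0.14 (adjusted p = 0.28) and was not called by edgeR. At 8 h against 4 h Mlx rose by 0.45 in cKO (adjusted p = 0.000973) and by 0.42 in WT (adjusted p = 0.00211). At 24 h against 8 h it fell by 0.38 in cKO (adjusted p = 0.00314) and by 0.54 in WT (adjusted p = 5.63e-05). Without mouse 2 the cKO rise (adjusted p = 0.0505) and the cKO fall at 24 h against 8 h (−0.23, adjusted p = 0.143) were not called. Without mouse 5 or 6 the WT rise was not called (0.0687 and 0.0882). The call at 24 h against 0 h, −0.27 in cKO (adjusted p = 0.0227) and −0.26 in WT (adjusted p = 0.0267), was lost in 4 and 5 of 12 alternatives, DESeq2 among them (0.0534 in cKO and 0.101 in WT). Mlx shares 385 exonic bases, 19.3% of its own, with Psmc3ip on the opposite strand. Psmc3ip had 61.8 ± 0.368 TPM in cKO and 63.1 ± 5.60 TPM in WT at 24 h, against 15.6 ± 5.53 TPM in cKO and 15.2 ± 4.70 TPM in WT at 8 h, and its part in the Mlx values was not tested.

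Of the partners and known targets of MLX, Mlxip, which encodes MondoA, fell at 24 h against 0 h by 0.84 in cKO (adjusted p = 8.59e-08) and by 1.02 in WT (adjusted p = 1.81e-09). Its level at 24 h was 10.5 ± 2.39 TPM in cKO and 8.87 ± 0.929 in WT. Mlxipl, which encodes ChREBP, was at 0.36 TPM or less in all libraries and was not tested. Txnip, the thioredoxin-binding inhibitor of glucose uptake and a classic target of MondoA and MLX, was at 154 ± 12.6, 38.7 ± 4.86, 15.3 ± 2.09 and 6.95 ± 1.07 TPM at 0, 4, 8 and 24 h in cKO and at 165 ± 5.81, 43.2 ± 1.27, 14.4 ± 2.17 and 8.16 ± 0.926 TPM in WT. It fell at each of the 3 steps in both genotypes, and at 24 h against 0 h its log2 change was −4.39 in cKO (SE 0.120, adjusted p = 4.25e-27) and −4.28 in WT (SE 0.118, adjusted p = 4.82e-27). Klf10, a zinc finger repressor, also fell, by 1.31 in cKO (adjusted p = 1.02e-05) and 1.98 in WT (adjusted p = 6.31e-09). Arrdc4, an arrestin-like relative of Txnip, was not called, at −0.22 in cKO and −1.53 in WT. Thus 2 of these 3 targets fell in each genotype, beside 39% of all genes in cKO and 40.1% in WT.

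Between genotypes, few members were called. At 4 h 1 of the 8 tested members, Mxd1, was called lower in cKO than in WT, where 0.82% of all genes were called in either direction and 0.384% were called lower. It was also the 1 member with an unadjusted p under 0.05, as were 11.8% of all genes. Its mean was 12.8 ± 0.674 TPM in cKO and 19.4 ± 0.261 TPM in WT, or −0.64 in log2 (SE 0.154, adjusted p = 0.033, with all 3 cKO below all 3 WT libraries). The direction held in the 12 alternatives (−0.71 to −0.56), but the call did not in 7 of them. The adjusted p was 0.126 with limma on TPM, 0.14 without the 4 h library of mouse 3, and 0.0907 to 0.164 without mouse 2, 3, 4, 5 or 6. At 0 h Mxd1 was at 5.43 ± 1.72 TPM in cKO and 7.89 ± 0.476 TPM in WT, −0.59 in log2 (SE 0.168, unadjusted p = 0.00124 and adjusted p = 0.145 in edgeR). It was called without mouse 3 (−0.74, adjusted p = 0.0381). At 8 and 24 h the Mxd1 difference was −0.23 (SE 0.184, adjusted p = 0.688) and −0.12 (SE 0.198, adjusted p = 1).

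Outside 4 h, 0 of the 8 members were called at 0, 8 or 24 h, where 0.445%, 0.183% and 0.105% of all genes were. At an unadjusted p under 0.05 edgeR had 1, 0 and 0 members at these times, beside 7.37%, 9.93% and 3.69% of all genes, and DESeq2 and limma each called 0. The log2 fold changes of Myc, cKO over WT, were 0.11 (SE 0.0959), −0.07 (SE 0.0932), −0.18 (SE 0.0933) and 0.10 (SE 0.0936) at 0, 4, 8 and 24 h, with adjusted p of 0.885, 0.829, 0.522 and 1. On TMM-scaled CPM, libraries of the 2 genotypes did not overlap for 1 of 8 members at 0 h (Mxd1, lower in cKO; 13.5% of all genes), 1 at 4 h (Mxd1, lower; 16%) and 1 at 8 h (Mxi1, lower, although its TPM overlapped; 10.5%). At 24 h they did not overlap for 3 (13.5%), namely Myc and Mlx, higher in cKO, and Mxd3, lower in cKO. The counts of Mxd3 at 24 h were 149 in cKO and 191 in WT, a ratio of 0.793 (95% counting interval 0.636 to 0.988), and the fitted difference over the replicates was −0.33 (SE 0.358, adjusted p = 1). Beside these values, the B cell list summed to 41.8 to 53.3 TPM in cKO and 33.2 to 37.3 TPM in WT at 0 h, and the dendritic cell list to 5.09 to 6.47 TPM in cKO and 3.35 to 4.54 TPM in WT at 4 h. At 4 h the NK list summed to 0.89 to 1.15 TPM in cKO and 0.18 to 0.68 TPM in WT, and the CD4 list to 0.45 to 0.72 TPM in cKO and 0.07 to 0.23 TPM in WT. The CD8 T cell list was higher in cKO without overlap at all 4 times, with 2990 to 3200 TPM in cKO and 2660 to 2820 TPM in WT at 4 h. Tcf7 RNA was higher in cKO at 4 h too, as given above. Their part in the genotype differences was not tested.

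An interaction term tested whether cKO and WT differed more, or less, at 4, 8 and 24 h than at 0 h. Of the 8 members 0 were called at 4 h (0.00872% of all genes called), 0 at 8 h (0.00872%) and 0 at 24 h (0.0174%). Members with an unadjusted p under 0.05 in edgeR numbered 0, 1 and 0, beside 7.11%, 7.95% and 4.29% of all genes, and DESeq2 and limma called 0 at each time. The one at 8 h was Myc, at −0.29 (SE 0.134, unadjusted p = 0.0357, adjusted p = 0.6). For Mxd1, the interaction was −0.05 (SE 0.229) at 4 h, 0.36 (SE 0.249) at 8 h and 0.47 (SE 0.26, unadjusted p = 0.0772, adjusted p = 1) at 24 h, so the smaller Mxd1 difference at the later times was not a called change.

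**Figure D3:**
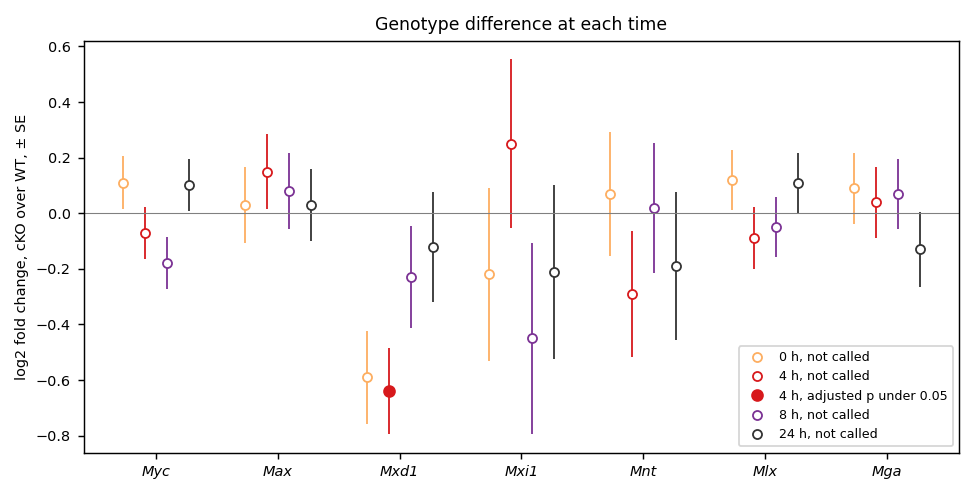
Fitted log2 fold change of cKO over WT ± SE (vertical axis) for 7 of the 8 tested genes at each of the 4 times, with open points for values that were not called. Mxd3 is left out because its groups have 0 to 10 counts before 24 h. Mxd1 at 4 h, −0.64, is the filled point.

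The balance of Myc to its antagonists was described by dividing the TPM of Myc by the summed TPM of Mxd1, Mxd3, Mxd4, Mxi1, Mnt and Mga. The ratio was 9.95 ± 2.66 in cKO and 7.21 ± 1.07 in WT at 0 h and 45.1 ± 3.89 in cKO and 36.3 ± 3.57 in WT at 4 h. It was 65.5 ± 11.0 in cKO and 68.1 ± 17.7 in WT at 8 h and 33.4 ± 3.07 in cKO and 26.1 ± 0.600 in WT at 24 h (SD, n = 3 each). On this scale the mean was highest at 8 h. Without the division by transcript length, the mean ratio at 24 h was 17.4 ± 0.351 in cKO and 14.4 ± 0.755 in WT, against 18.1 ± 2.72 in cKO and 20.2 ± 4.34 in WT at 8 h, and in cKO the libraries of these times overlapped. Libraries of the genotypes did not overlap at 4 h (40.7 to 48.1 in cKO, 33.2 to 40.2 in WT) and at 24 h (30.8 to 36.8 in cKO, 25.5 to 26.7 in WT), and they overlapped at 0 and 8 h. On that scale the 4 h ratios of the genotypes overlapped (15.7 to 16.9 in cKO, 13.1 to 16.2 in WT) and the 24 h ratios did not (17.1 to 17.8 in cKO, 13.7 to 15.2 in WT). No p is given for a score over chosen genes, and 3 against 3 libraries could not reach an exact p under 0.1.

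The make-up of the antagonists changed with time. Their summed level was 16.6 TPM in cKO and 20.1 in WT at 0 h, 25.3 and 32.1 at 4 h, 14.3 and 15.2 at 8 h, and 14.2 and 16.9 at 24 h. Mxd1 made up 15.6% of it in cKO and 14.3% in WT at 24 h, against 50.8% in cKO and 60.7% in WT at 4 h. Mxd3 made up 49.5% in cKO and 52.7% in WT at 24 h and 1.51% or less in both genotypes at 4 and 8 h. Myc itself held 89.3% of the network's summed TPM in both genotypes at 4 h, against 53.0% in cKO and 51.8% in WT at 0 h.

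**Figure D4:**
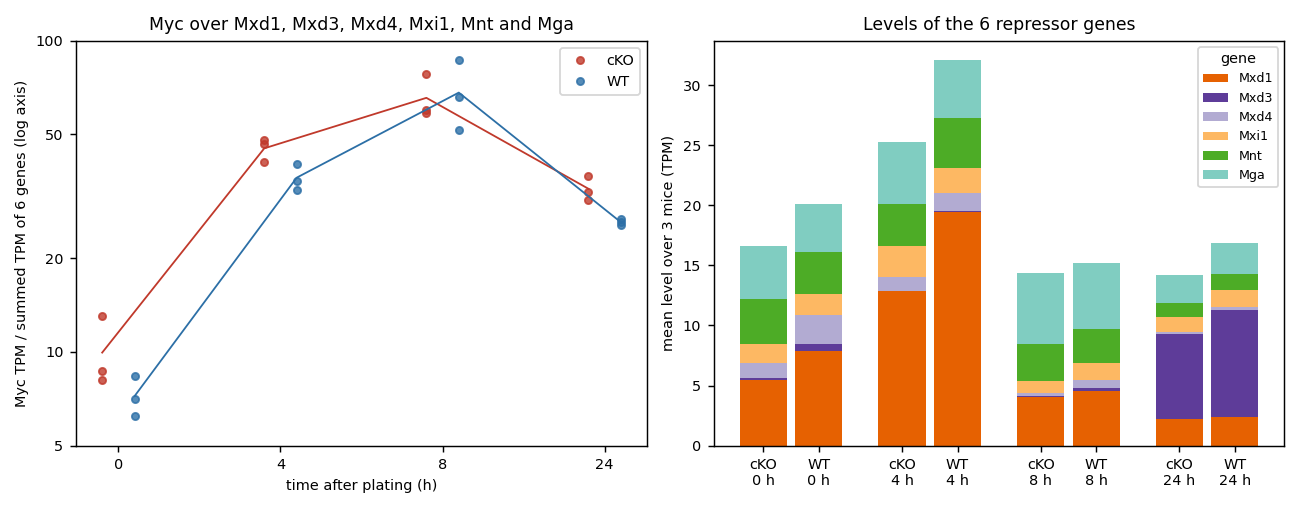
Left, ratio of Myc TPM to the summed TPM of 6 repressor genes (log axis) in each library at each time, with lines through the group means, cKO left of WT. Right, stacked mean TPM of the 6 repressors in each group of 3 mice, cKO left of WT at each time. Mxd1 leads at 0 and 4 h in both genotypes, and Mxd3 leads at 24 h.

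Genes known as MYC targets were counted in 4 lists. Of 25 ribosome biogenesis genes, all tested, 24 rose and 1 fell at 4 h over 0 h in cKO and likewise in WT (29.6% and 27.6% of all genes rose and fell in cKO, 30% and 29.1% in WT). The list median was 1.70 in cKO and 1.75 in WT, beside 0 and −0.04 for all genes. The gene that fell was Ubtf, a ribosomal DNA transcription factor, at −0.88 in each genotype (adjusted p = 7.37e-10 in cKO and 8.49e-10 in WT). Ncl, which encodes nucleolin, was at 120 ± 3.53, 431 ± 20.8, 605 ± 30.3 and 616 ± 9.06 TPM at 0, 4, 8 and 24 h in cKO and at 111 ± 1.81, 442 ± 28.5, 659 ± 30.3 and 639 ± 7.97 TPM in WT. At 24 h against 0 h all 25 had risen in each genotype, beside 37.3% of all genes in cKO and 36.9% in WT. The 25 included Ncl (2.45 in cKO and 2.57 in WT), the pre-ribosome factors Wdr12 (2.24 and 2.42) and Nop2 (2.03 and 1.99), and the nucleolar chaperone Npm1 (2.04 and 2.09). At 24 h against 8 h, 2 rose and 10 fell in cKO (25.2% and 32.1% of all genes), and 2 rose and 15 fell in WT (24.7% and 34.1%).

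Of 24 genes of metabolism and nutrient uptake, 22 rose and 0 fell at 4 h over 0 h in each genotype. Over all genes 29.6% rose and 27.6% fell in cKO, and 30% rose and 29.1% fell in WT. The list median was 1.07 in cKO and 1.19 in WT, beside 0 and −0.04 for all genes. At 24 h over 0 h all 24 had risen in each, beside 37.3% of all genes in cKO and 36.9% in WT. Hk2, the inducible hexokinase that commits glucose to glycolysis, was at 0.417 ± 0.254, 17.7 ± 0.770, 25.5 ± 3.20 and 25.1 ± 0.599 TPM at 0, 4, 8 and 24 h in cKO and at 0.447 ± 0.186, 18.2 ± 2.63, 29.2 ± 3.96 and 26.4 ± 0.989 TPM in WT. Pyrimidine synthesis genes rose too, Cad by 2.08 in cKO and 2.19 in WT and Umps by 2.59 and 2.69 at 24 h over 0 h, as did Shmt2 of the one-carbon pathway, by 2.49 in each.

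Of 16 cell cycle genes, 5 rose and 4 fell in cKO at 4 h over 0 h (29.6% and 27.6% of all genes), and 8 rose and 3 fell in WT (30% and 29.1%). Most of their change came at 24 h against 8 h, when 12 rose and 1 fell in each genotype. Over all genes 25.2% rose and 32.1% fell in cKO, and 24.7% rose and 34.1% fell in WT. The list median was 2.12 in cKO and 2.18 in WT, beside −0.09 and −0.12 for all genes. The step from 8 to 24 h is also the one at which Mxd3 appeared. Mcm5, a subunit of the replicative helicase, was at 359 ± 13.3 TPM in cKO and 352 ± 10.4 TPM in WT at 24 h, against 65.1 ± 8.38 TPM in cKO and 66.6 ± 5.33 TPM in WT at 8 h. Mcm3, Mcm6 and Mcm7 of the same helicase also rose at 24 h over 0 h, by 2.87, 2.32 and 2.40 in cKO and by 3.04, 2.57 and 2.44 in WT.

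Among 11 genes known to be repressed by MYC, 9 were tested. At 24 h over 0 h 2 rose and 4 fell in cKO (37.3% and 39% of all genes), and 2 rose and 5 fell in WT (36.9% and 40.1%), shares not far from those of all genes. The anti-proliferative genes Btg1 and Btg2 fell by 2.98 and 2.01 in cKO and by 2.80 and 2.17 in WT, and Cdkn1b, which encodes the cyclin-dependent kinase inhibitor p27, fell by 2.56 in cKO and 2.88 in WT. Gadd45b, a stress-response gene, went against the list, with a rise of 2.60 in cKO and 2.19 in WT. The other gene that rose was Cdkn1a, which encodes the inhibitor p21 and is named after its values were seen. It was at 0 in all 3 cKO libraries and at 0.13 ± 0.125 TPM in WT at 0 h, at 92.6 ± 3.63 TPM in cKO and 113 ± 31.3 TPM in WT at 4 h, and at 21.3 ± 1.77 TPM in cKO and 16.8 ± 2.07 TPM in WT at 24 h.

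In the genotype comparisons, 3 calls fell on these 4 lists, which had 25, 24, 16 and 9 tested genes. Of all genes, 0.445%, 0.82%, 0.183% and 0.105% were called at 0, 4, 8 and 24 h. Odc1, the polyamine synthesis enzyme and an early known MYC target, was lower at 4 h, at 79.0 ± 2.35 TPM in cKO and 107 ± 9.70 TPM in WT (−0.48, SE 0.121, adjusted p = 0.049). Fbl, the nucleolar methyltransferase fibrillarin, was lower at 4 h as well, at 90.7 ± 4.76 TPM in cKO and 127 ± 22.3 TPM in WT (−0.52, SE 0.126, adjusted p = 0.033). At 8 h the mean of Fbl was higher in cKO, at 210 ± 22.4 TPM against 160 ± 48.4 TPM in WT. Odc1 was then at 126 ± 9.59 TPM in cKO and 130 ± 15.6 TPM in WT, and neither gene was called at 8 h. How the calls on these lists hold under the alternatives is not given here. Ndrg1, a stress-response gene, was higher at 0 h, at 11.3 ± 2.91 TPM in cKO and 5.80 ± 1.03 TPM in WT (0.91, SE 0.201, adjusted p = 0.0312). Every list median between genotypes lay between −0.17 and 0.21 in these 4 lists, beside −0.03 to 0.01 for all genes. In the 3 interactions edgeR called 0 genes of these 4 lists.

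**Figure D5:**
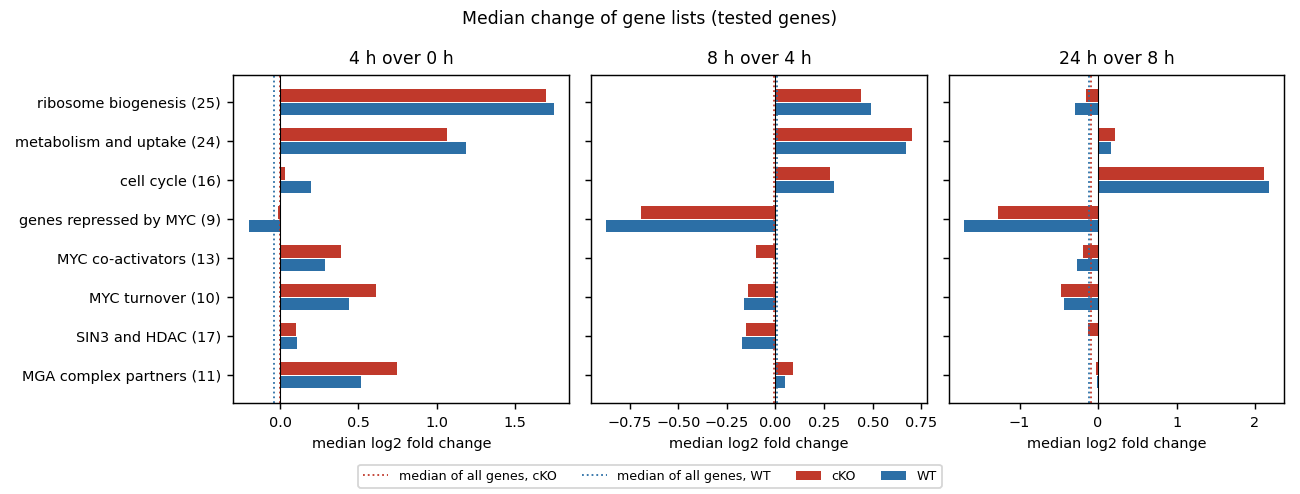
Median log2 fold change (horizontal axis) of the tested genes of 8 lists between successive times, cKO above WT, with the number of tested genes in brackets and dotted lines at the median of all genes. Ribosome biogenesis and metabolism lead at 4 h over 0 h, and cell cycle leads at 24 h over 8 h with 2.12 in cKO and 2.18 in WT. The axes differ between panels.

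Genes that act with the network's proteins moved in both directions. Of 13 MYC co-activators, 6 rose and 5 fell at 24 h over 0 h in cKO, and 6 rose and 4 fell in WT. Over all genes 37.3% rose and 39% fell in cKO, and 36.9% rose and 40.1% fell in WT, so these shares were near those of all genes. The helicase subunits Ruvbl1 and Ruvbl2 rose by 2.13 and 2.92 in cKO and by 2.13 and 2.88 in WT, and the scaffold Wdr5 by 1.22 and 1.25, while Bptf of the NURF remodeller fell by 1.22 and 1.31. Of 10 regulators of MYC turnover, 5 rose and 4 fell in cKO, and 3 rose and 4 fell in WT, also near the shares of all genes. The deubiquitinase Usp28, which stabilises MYC, fell by 2.66 in each genotype, and the kinase Gsk3b, which marks MYC for degradation, fell by 1.46 in cKO and 1.41 in WT. The ubiquitin ligase subunit gene Skp2 rose by 2.09 in cKO and 1.98 in WT.

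Of 17 genes of the SIN3 and histone deacetylase co-repressors, through which MXD proteins and MNT act, 5 rose and 8 fell in cKO (37.3% and 39% of all genes), and 5 rose and 9 fell in WT (36.9% and 40.1%). The histone chaperone Rbbp7 rose by 1.16 in cKO and 1.33 in WT. Arid4a and Arid4b, which encode SIN3-associated proteins, fell by 1.86 and 1.60 in cKO and by 2.27 and 1.61 in WT, and the co-repressor Ncor1 fell by 1.15 and 1.23. Of 11 partners of MGA in its Polycomb complex, 6 rose and 0 fell at 24 h over 0 h in each genotype. Over all genes 37.3% rose and 39% fell in cKO, and 36.9% rose and 40.1% fell in WT. L3mbtl2 was among the 6 only in WT and Tfdp2 only in cKO, and Wdr5 was also counted among the co-activators. In both genotypes the 6 included Tfdp1, the dimer partner of E2F factors (2.81 in cKO and 2.89 in WT). Yaf2 (1.86 and 1.89) and the heterochromatin protein gene Cbx3 (0.45 and 0.66) were among them as well. Mga itself fell, by 0.80 in cKO and 0.58 in WT. The 4 tested genes of 6 other network genes split evenly. Mycbp, which encodes a MYC-binding protein, rose by 1.91 in cKO and 2.02 in WT, and Zbtb17, which encodes the MYC partner MIZ1, by 0.37 and 0.46. Mycbp2, a large ubiquitin ligase, fell by 1.48 and 1.38, and Mlxip fell as given above.

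The genes whose course over the 24 libraries was most like that of Myc were found by Pearson's r of log2(CPM + 1) among 6331 genes with a mean of at least 10 TPM. They were Map2k3, a kinase of the p38 pathway (r = 0.995), the NF-kappaB subunit gene Rel (0.994), the nuclear receptor gene Nr4a2 (0.993) and M6pr, a mannose 6-phosphate receptor (0.992). The most opposite were Dapl1 (−0.986) and Ccdc69 (−0.981). For Mxd1 the most alike were the AP-1 subunit gene Junb (0.953), Usp22 (0.949), the receptor gene Notch1 (0.948) and P2ry10 (0.947), and the most opposite were Ecsit (−0.952) and Dus2l (−0.951). Among the members, the highest r was that of Mxd1 with Mnt (0.80), followed by Mnt with Mga (0.78). Mxd1, Mnt and Mga were all lowest at 24 h, so the 24 h libraries weigh on these values too. For Myc the highest r was with Max (0.65), but the 2 parted at the last step. At 24 h against 8 h Myc fell, while the change of Max, 0.11 in cKO and 0.15 in WT, was not called. Mxd3 had an r of −0.92 with Mnt and −0.89 with Mga, but it was nearly absent before 24 h. Its r thus sets the 24 h libraries, where Mnt and Mga were lowest, against all earlier ones. It cannot show opposed courses before 24 h. The 24 points share mice, times and library scaling, and these values are descriptions.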

How the data were processed

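RNA of 1000 sorted CD8+ T cells per library was measured in 24 libraries. Per the submitters' processing notes, the tools include STAR, RSEM and DESeq2 and the build is mm10, with versions not given in the sources used here. The authors deposited, per the file headers, expected counts, TPM, FPKM and effective lengths per gene from RSEM. FPKM was not used. Smart-seq2 has no molecular identifiers, so intervals cover counting error only.

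The expected counts, rounded to integers, entered edgeR 4.0.16 in R 4.3.3 (filterByExpr, TMM scaling, robust quasi-likelihood fit). One model with 8 group means gave 15 comparisons, with Benjamini-Hochberg adjustment over 11470 genes in each. The SE is the size of the log2 change over the root of its F statistic. Ratios of sparse genes use summed counts scaled by TMM library size. Rn45s, a ribosomal RNA gene, took 7.39% to 20.6% of the counts and was kept. Alternatives were DESeq2 1.42.0, limma 3.58.1 on log2(TPM + 1), no filter, no Rn45s, fits of only the groups compared, a mouse block and leaving out libraries. The scripts were tested on simulated data.

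The labels give the same mouse at all 4 times, so mice pair the times. Deviations of the same mouse from the group means had a median correlation of 0.03 (−0.13 to 0.19 over 36 pairs), against −0.01 (−0.18 to 0.11 over 72 pairs) for other mice. The members and gene lists were chosen with earlier results of these data known. All 10 members are named, with up to 4 called genes per list with the smallest adjusted p at 24 h against 0 h in WT and, for Myc and Mxd1, the 4 genes most like and 2 most opposite in course. Some genes that this rule or the marker lists hold are not reported here. Genes called between genotypes, and others named beside them, were added after their values were seen. Promoter windows are from RefSeq, and positions from GENCODE vM21.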

Additional observations from a re-analysis of the deposited data

How the results depend on the processing

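No member changed direction in a called comparison under any alternative, and of the member values under alternatives 1448 kept their side of the threshold, 41 lost a call and 6 gained one. The counts that moved by over 1.5 times were those of all genes called between genotypes, 51, 94, 21 and 12 at 0, 4, 8 and 24 h, and in the interactions, 1, 1 and 2 at 4, 8 and 24 h. With DESeq2 they were 84, 216, 67 and 27, and 5, 14 and 8. With no filter on low counts they were 136, 249, 135 and 32, and 45, 34 and 21. With limma the interactions had 5, 2 and 4, and 0 members were called at 4 h between genotypes. With only the groups compared, the genotype count at 24 h was 100 and the interactions at 4 and 24 h had 0 and 7. With the mouse as a replicate block, the interactions had 2, 2 and 7, and no member call changed. Among alternatives chosen after seeing the data, leaving out the 4 h library of mouse 3 gave 54 genes and 0 members between genotypes at 4 h, and 3 members called in cKO at 4 h against 0 h, where all libraries gave 6. Leaving out the 8 h libraries of mice 2 and 5 gave 13 genes at 8 h. Leaving out 1 mouse at a time gave 21 to 94, 32 to 156, 7 to 66 and 6 to 19 genes between genotypes, 0 to 1 members at 0 h and at 4 h, and 0 to 2, 1 to 4 and 2 to 5 genes in the interactions. It gave 2 to 4 members in WT at 4 h against 0 h, 1 to 2 in WT at 8 h against 4 h, and 2 to 4 in cKO at 8 h against 4 h. The log2 ratio of Myc to its antagonists, without division by transcript length, was 1.73 in cKO and 1.48 in WT at 0 h, 4.04 and 3.84 at 4 h, 4.16 and 4.31 at 8 h, and 4.12 and 3.85 at 24 h, where TPM gave 3.28 and 2.84, 5.49 and 5.18, 6.02 and 6.06, and 5.06 and 4.70. With no filter the median of all genes at 24 h against 0 h moved by −0.27 in cKO and −0.45 in WT. Depth limits Mycn, Mxd4 and, before 24 h, Mxd3. The cause of these shifts was not tested.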
